A study of Mus musculus with 4 samples.

Results

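The genes described here make and unmake glucose 6-phosphate in islet cells: the hexokinases Hk1, Hk2, Hk3 and Hkdc1, the regulator gene Gckr, the glucose-6-phosphatase catalytic subunits G6pc, G6pc2 and G6pc3, and the transporter gene Slc37a4. They were taken by symbol from a table of 39170 gene rows, where all 9 were found in 1 row each. The glucokinase gene itself is not analysed here, so every hexokinase sum below is without it.

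Hexokinases add a phosphate to glucose as it enters the cell, which traps it and commits it to glycolysis, glycogen or the pentose phosphate pathway. Glucose-6-phosphatase, an enzyme of the endoplasmic reticulum, removes that phosphate again, and its substrate reaches the lumen through the transporter encoded by Slc37a4. In beta cells the low-affinity glucokinase sets the rate of glucose use, G6pc2 encodes an islet isoform of the phosphatase that works against it, and the high-affinity hexokinases are known to be kept low.

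RNA was sequenced from insulin-positive islet cells of MIP-GFP males on the C57BL/6 background, 6 to 8 weeks old, in which the mouse insulin 1 promoter drives green fluorescent protein. The cells were sorted on the glucose transporter Glut2 into a high gate (Glut2H) and a low gate (Glut2L). Vehicle-injected controls and mice given 200 mg/kg of streptozotocin (STZ), a beta cell toxin taken up through Glut2, were compared, and the STZ mice were diabetic after 4 days. There are 4 groups of 1 library each, ordered here as control Glut2H, control Glut2L, STZ-treated Glut2H and STZ-treated Glut2L. The labels name 3 mice per treatment and do not say whether their RNA was pooled. No spread between replicates can be had, so nothing was tested: each difference below is between libraries, with no replicate check. Values are in FPKM (fragments scaled to transcript length and library size), always in that order, and the read depth behind them is unknown.

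Some features of the whole libraries bear on these genes. The Slc2a2 transcript, which encodes Glut2, stood at 8.74, 41.0, 10.8 and 33.7 FPKM, against the gate labels, so the gates are called by their labels throughout. All 12 beta cell markers were present in every library, with summed levels of 67091 and 71014 FPKM in the Glut2H-labelled libraries and of 209149 and 337731 in those labelled Glut2L. The Glut2H-labelled libraries also held leukocyte RNA (18 markers, summed 3554 and 3880.0 FPKM, against 116 and 156), endothelial RNA (8 markers, 243 and 263 against 14.9 and 33.9) and stromal RNA (10 markers, 793 and 928 against 24.5 and 63.6). Of these markers the T cell gene Cd3e was listed at 0, in both Glut2L-labelled libraries. Acinar markers (10, with Ptf1a listed at 0 in both Glut2L-labelled libraries) summed to 3587, 2829.8, 3846 and 323 FPKM. Alpha cell markers (7) summed to 2328, 4225, 4387 and 9994 FPKM and delta and PP cell markers (6) to 5652, 9653, 5689 and 10648. Red cell markers (5) summed to 83.2, 1.02, 0 and 0.888. A short predicted gene, Gm20594, took 61.0%, 3.86%, 68.5% and 4.15% of the summed FPKM.

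The deposited table gives each gene an interval whose level is not stated. All 9 genes had the status OK throughout. Of them, 4 (Hk1, G6pc2, G6pc3 and Slc37a4) were at 1 FPKM or more in every library, and 7 reached it in some library. G6pc and Gckr never did. Transcripts of the hexokinases are similar in sequence, but the longest stretch shared exactly by any 2 of the 9 genes was 27 bases, between Hk1 and Hk2.

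The plot of FPKM by library gives all values with their intervals.

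**Figure D1:**
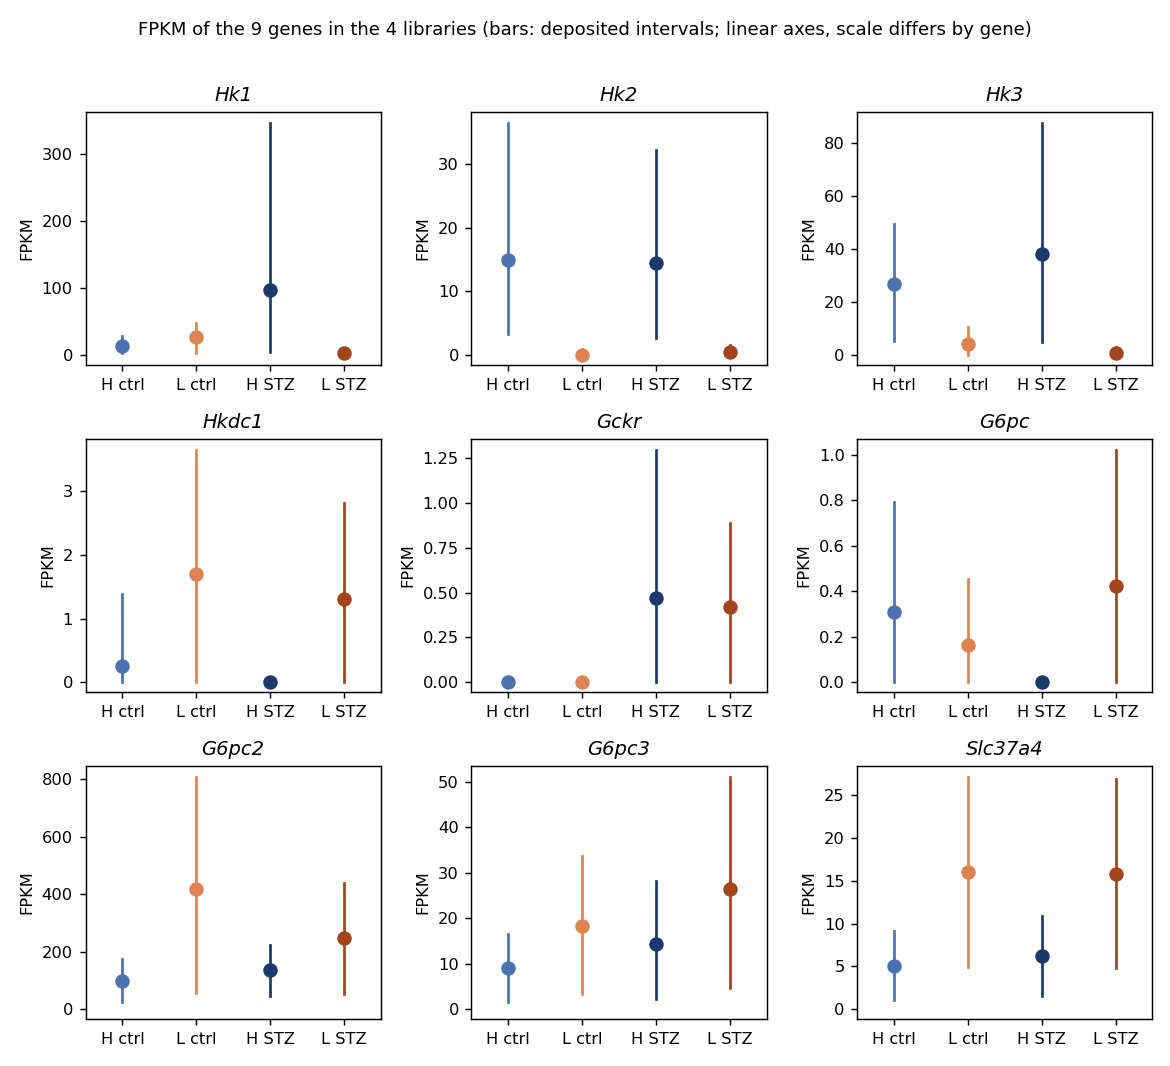
FPKM (vertical axes, linear, with a different scale for each gene) of the 9 genes in the libraries Glut2H control (H ctrl), Glut2L control (L ctrl), Glut2H STZ (H STZ) and Glut2L STZ (L STZ). Points are single libraries and bars are the deposited intervals. Hk2 and Hk3 stand higher in the Glut2H-labelled libraries, while G6pc2, G6pc3 and Slc37a4 stand higher in those labelled Glut2L within each treatment.

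The 250 bases before a RefSeq transcription start are shown for 5 of the genes. Of these, 3 of the phosphatase system were higher in both Glut2L-labelled libraries and 2 hexokinases were lower there. Sequences are from RefSeq on GRCm38.p6, the same build as the deposited table. Where RefSeq lists several starts, the start nearest the table's locus was taken. That start matched the locus start for G6pc2, Hk2 and Hk3. It lay 79 bases inside the locus for G6pc3 and 178 bases inside it for Slc37a4, so those windows are partly within the locus. The whole Slc37a4 window lies within the annotated span of the gene. In the phosphatase genes, capitals mark matches on either strand to the E-box CANNTG and to the homeodomain core TAAT.
G6pc2, chr2:69210823-69211072, plus strand: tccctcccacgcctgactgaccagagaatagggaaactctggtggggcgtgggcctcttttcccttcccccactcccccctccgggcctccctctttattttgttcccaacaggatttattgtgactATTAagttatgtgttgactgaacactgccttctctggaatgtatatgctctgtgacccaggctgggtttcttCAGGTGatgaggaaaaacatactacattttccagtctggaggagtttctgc
G6pc3, chr11:102189449-102189698, plus strand: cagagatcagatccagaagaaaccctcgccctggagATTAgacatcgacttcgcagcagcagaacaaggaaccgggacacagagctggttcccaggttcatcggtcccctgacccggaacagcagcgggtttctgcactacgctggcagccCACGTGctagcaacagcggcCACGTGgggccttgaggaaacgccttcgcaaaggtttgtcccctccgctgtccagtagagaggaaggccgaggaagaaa
Slc37a4, chr9:44398104-44398353, plus strand: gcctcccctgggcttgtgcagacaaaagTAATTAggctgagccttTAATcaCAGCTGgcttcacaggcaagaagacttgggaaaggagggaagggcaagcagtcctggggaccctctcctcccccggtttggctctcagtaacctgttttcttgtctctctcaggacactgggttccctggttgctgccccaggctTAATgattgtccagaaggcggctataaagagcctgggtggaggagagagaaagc
In the hexokinase genes, capitals mark matches on either strand to the core of the hypoxia element, ACGTG, and to a purine-rich core of the ETS family, GAGGAA.
Hk2, chr6:82774455-82774704, minus strand: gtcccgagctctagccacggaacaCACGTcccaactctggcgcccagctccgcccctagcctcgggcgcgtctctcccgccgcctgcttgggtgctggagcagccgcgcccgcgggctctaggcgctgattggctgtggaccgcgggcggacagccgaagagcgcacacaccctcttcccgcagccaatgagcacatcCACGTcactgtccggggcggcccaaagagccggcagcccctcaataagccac
Hk3, chr13:55021386-55021635, minus strand: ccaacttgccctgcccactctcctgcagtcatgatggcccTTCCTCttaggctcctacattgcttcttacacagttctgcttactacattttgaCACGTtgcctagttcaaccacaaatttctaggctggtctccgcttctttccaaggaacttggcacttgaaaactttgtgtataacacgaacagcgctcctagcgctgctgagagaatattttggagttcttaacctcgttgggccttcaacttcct

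The islet phosphatase gene G6pc2 held 1 TAAT and 1 E-box, G6pc3 held 1 and 2, and Slc37a4 held 4 and 1. Hk3 held 0 and 1, and Hk2 held 0 of both. Capitals do not mark the motifs chosen for the other set of genes as such. Among 32851 RefSeq promoter windows of the same length, 54.9% held TAAT and 66.2% an E-box, so such matches are common. Hk2 had 2 ACGTG matches, Hk3 had 1 and G6pc3 had 4, against 16.6% of windows with any; the 4 in G6pc3 lie on both strands of its 2 E-boxes. GAGGAA, found in 23.3% of windows, had 1 match in Hk3, 1 in G6pc2, 3 in G6pc3 and 0 in Hk2 and Slc37a4. The AP-1 motif TGANTCA (6.75% of windows) was in none of the 5. The window of Hk2 was the richest of the 5 in G and C, at 69.6% with 25 CpG, against 50.0% with 3 in G6pc2. These matches describe the letters alone.

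In control mice, the Glut2L-labelled library held more RNA of the phosphatase system and less of Hk2 and Hk3 than the Glut2H-labelled library. Differences were taken between log2 values of FPKM plus 1, over genes with at least 1 FPKM in either library and an OK status. Of the 9 genes, 7 could be measured. G6pc2, Slc37a4 and Hkdc1 were at least 2-fold higher there, as were 19.7% of all 16234 genes measured. Hk2 and Hk3 were at least 2-fold lower, as were 18.5%. After STZ, 7 were again measured: Slc37a4 and Hkdc1 were at least 2-fold higher in the Glut2L-labelled library (22.9% of all 15839 genes) and Hk1, Hk2 and Hk3 at least 2-fold lower (17.8%). The median difference of all genes was 0.15 in control mice and 0.23 after STZ, and it moved to 0.87 and 1.18 when each library was scaled to the same total FPKM. Of all genes called, 51.6% and 56.4% were higher, which became 78.6% and 85.6% at the same total and 43.0% and 43.1% with medians centred on 0. Apart in their deposited intervals as well as 2-fold lower were Hk2 in control mice (4.19% of all genes) and Hk2 and Hk3 after STZ (4.15%). None of the 9 was so among higher genes (0.511% and 0.972% of all genes). With equal totals, all 7 measured genes were at least 2-fold apart, 5 higher and 2 lower in control mice and 4 higher and 3 lower after STZ. Of all genes, 44.3% were then higher and 12.1% lower in control mice, and 58.4% and 9.79% after STZ. None of the gate differences of these 7 genes changed direction under the scalings tried.

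**Figure D2:**
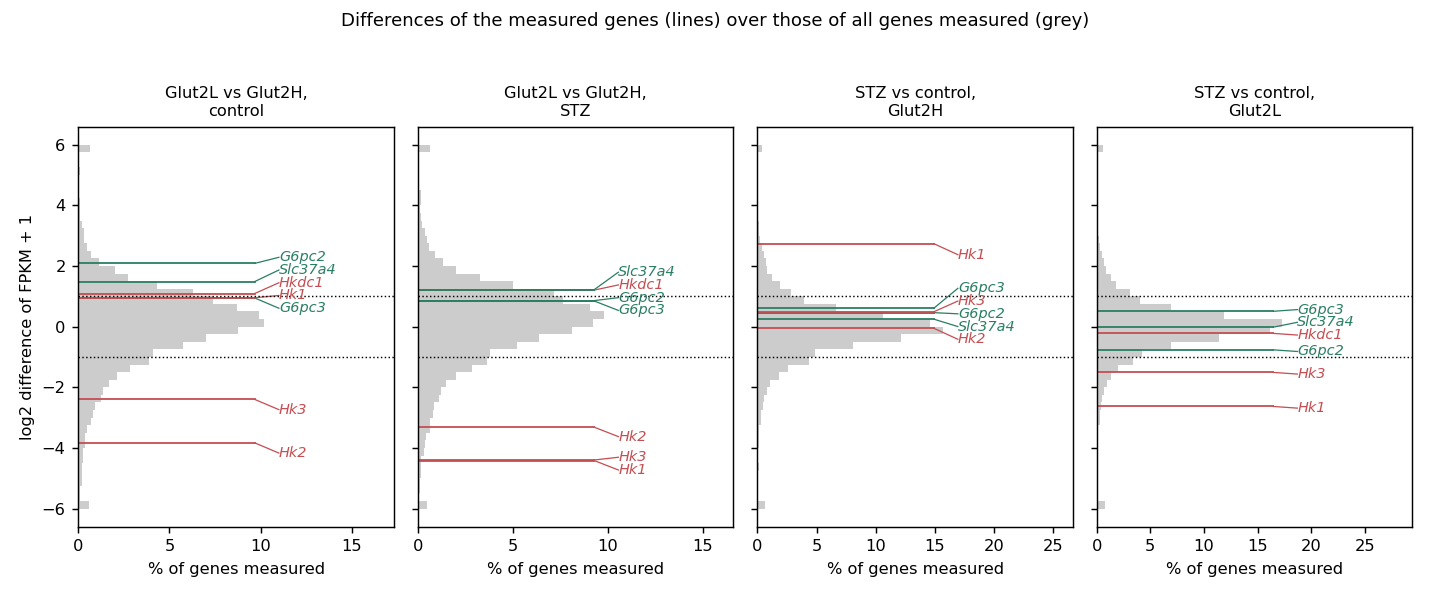
Log2 difference of FPKM plus 1 (vertical axis) in the 4 comparisons. Grey bars give the percentage of all genes measured, with values beyond 6 in either direction placed in the end bars. Lines mark hexokinases (red) and genes of the phosphatase system (green), and dotted lines mark 2-fold. In control mice Hk2 lies at -3.83 and G6pc2 at 2.09. After STZ, Hk1, Hk2 and Hk3 lie between -4.42 and -3.32.

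Hk2 encodes the hexokinase of muscle, fat and many proliferating cells, and is among the genes that mature beta cells are known to keep silent. It lies on chromosome 6 (ENSMUSG00000000628, GRCm38, 82725025 to 82774454, minus strand). Its FPKM was 14.9, 0.119, 14.4 and 0.545. Both Glut2H-labelled libraries were high, both labelled Glut2L were low, and the order did not depend on treatment. The log2 difference of Glut2L from Glut2H was -3.83 in control mice and -3.32 after STZ, and the deposited intervals did not overlap in either pair. In control mice 2.04% of genes measured had a lower value, and after STZ 3.01%. An antisense gene, Gm17034, overlaps 3007 bases of Hk2 and stood at 1.11, 0.219, 0.293 and 0 FPKM.

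Hk3, the hexokinase typical of myeloid cells, lies on chromosome 13 (ENSMUSG00000025877, 55005985 to 55021385, minus strand). It stood at 27.0, 4.30, 38.2 and 0.862 FPKM. Again both Glut2H-labelled libraries were above both labelled Glut2L. The log2 difference was -2.40 in control mice, where the intervals overlapped, and -4.40 after STZ, where they did not. The tail of Hk3 overlaps 34 bases of Unc5a on the other strand, which was at 2.03, 1.63, 1.84 and 6.12 FPKM.

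Hk1 encodes the hexokinase found in most tissues and is strong in brain and red cells. It lies on chromosome 10 (ENSMUSG00000037012, 62268855 to 62379908, minus strand). Its FPKM was 13.8, 27.6, 97.7 and 3.62, the only order of the 4 libraries among the 6 best expressed genes in which the higher gate switched with treatment. In control mice the Glut2L-labelled library was higher by 0.95 on the log2 scale, just short of 2-fold on that scale. At the same total FPKM per library it was higher by 1.74, and at the reduced total by 0.92. After STZ it was lower by a difference of -4.42. The value of 97.7 carried an interval from 4.81 to 345, wider relative to its level than 93.2% of rows at 1 FPKM or more in that library, and the intervals of all 4 libraries overlapped. Hk1 had 18 protein-coding transcripts in the annotation, against 3 for Hk2 and 5 for Hk3. Its antisense neighbour Hk1os was at 0, 1.15, 0 and 0.495 FPKM.

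Hkdc1, a hexokinase with a domain structure like that of Hk1, lies next to Hk1 on the same strand (ENSMUSG00000020080, chromosome 10, 62383137 to 62422491). It was at 0.262, 1.69, 0 and 1.31 FPKM, low everywhere and above 1 FPKM in the Glut2L-labelled libraries. The log2 differences of 1.09 and 1.21 dropped below 2-fold, to 0.35 and 0.34, with a pseudocount of 5, and to 0.95 and 0.97 with the all-gene median centred on 0. Its intervals overlapped in both pairs. Gckr, which encodes the protein that binds and inhibits glucokinase in the liver nucleus, was listed at 0 in both control libraries and at 0.470 and 0.420 FPKM in the STZ pair, Glut2H first (ENSMUSG00000059434, chromosome 5, 31297443 to 31327314).

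G6pc2 was the most abundant of the 9 genes in every library. It lies on chromosome 2 (ENSMUSG00000005232, 69211073 to 69227841, plus strand) and stood at 98.1, 420.0, 136 and 247 FPKM. Ranked by FPKM among all rows, it was 726th, 183rd, 508th and 290th. Both Glut2L-labelled libraries were above both labelled Glut2H. The log2 difference between the gates was 2.09 in control mice and 0.86 after STZ, and the second is short of 2-fold. In control mice 96.0% of the genes measured had a lower value. The intervals overlapped in both pairs. At the same total FPKM per library, the difference after STZ became 1.99, when the median of all genes stood at 1.18. At the reduced total the difference was 0.79.

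G6pc3, the catalytic subunit found in most tissues, was at 9.07, 18.4, 14.3 and 26.5 FPKM (ENSMUSG00000034793, chromosome 11, 102189620 to 102194081, plus strand). The gate differences were 0.95 and 0.85 on the log2 scale, both short of 2-fold, and the intervals overlapped. They became 1.72 and 1.92 at the same total FPKM per library, but 0.91 and 0.78 at the reduced total. The first became 1.01 with a pseudocount of 0.1. Slc37a4, which carries glucose 6-phosphate into the reticulum, was at 5.07, 16.0, 6.22 and 15.8 FPKM (ENSMUSG00000032114, chromosome 9, 44396852 to 44402968, plus strand). Its values fell into a low level in the Glut2H-labelled libraries and a higher level in those labelled Glut2L, with gate differences of 1.49 and 1.22 and overlapping intervals. After STZ the latter became 0.99 with the all-gene median centred on 0, and 0.89 with a pseudocount of 5. G6pc, the subunit of liver and kidney, was at 0.307, 0.163, 0 and 0.423 FPKM and was not measured in any comparison (ENSMUSG00000078650, chromosome 11, 101367561 to 101377903).

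Ratios of genes within a library do not depend on how libraries are scaled. Of the summed FPKM of Hk1, Hk2, Hk3 and Hkdc1, Hk1 took 24.6%, 81.9%, 65.0% and 57.2%. Hk3 took 48.2%, 12.7%, 25.4% and 13.6%, and Hk2 took 26.7%, 0.352%, 9.57% and 8.60%. The largest contributor was thus Hk3 in the Glut2H control library and Hk1 in the other 3. The share of Hkdc1 was 0.468%, 5.01%, 0% and 20.6%, the last out of a sum of just 6.34 FPKM. G6pc2 took between 90.1% and 95.8% of the summed catalytic subunits in every library, and G6pc3 took nearly all of the rest.

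The summed catalytic subunits stood at 108, 439, 149.9 and 274 FPKM and the summed hexokinases at 55.9, 33.8, 150.3 and 6.34. Their ratio was 1.92, 13.0, 0.998 and 43.2, higher in the Glut2L-labelled library in both treatments. In the Glut2H STZ library, Hk1, the gene with the wide interval there, made up 65.0% of the hexokinase sum. The ratio of G6pc2 to Slc37a4 varied less, at 19.3, 26.2, 21.8 and 15.6, and that of G6pc2 to G6pc3 was 10.8, 22.8, 9.47 and 9.30. In the Glut2L control library G6pc2 was thus high even against G6pc3 of the same library.

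**Figure D3:**
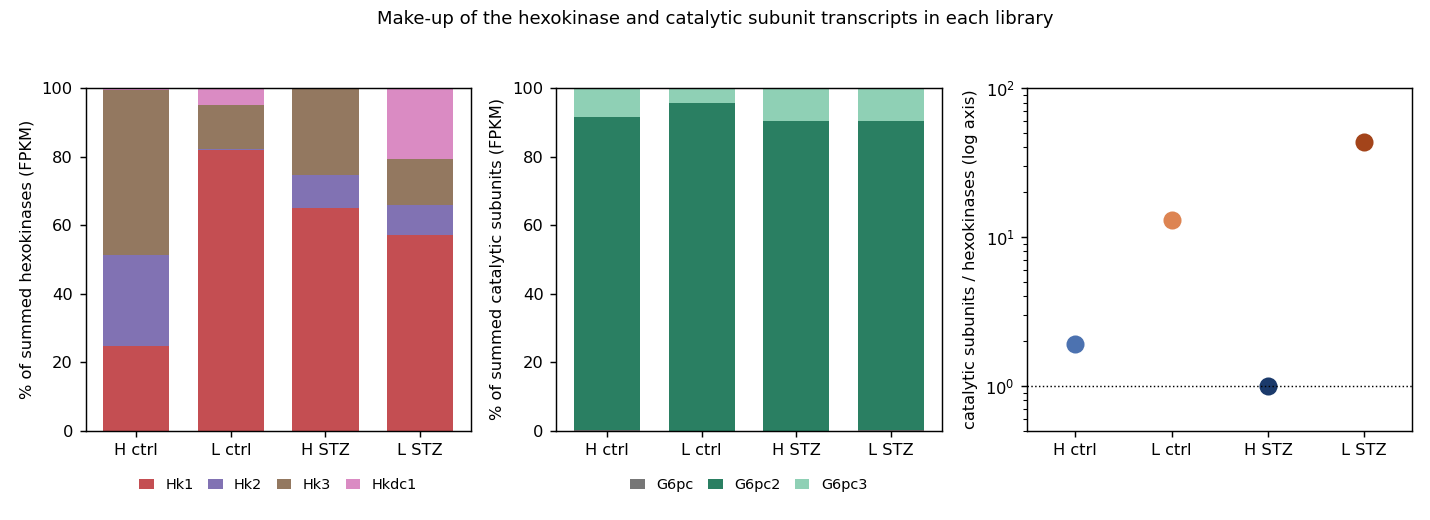
Share of each gene in the summed FPKM of the hexokinases (left, percent) and of the catalytic subunits (middle, percent), and the ratio of the sums (right, log axis, dotted line at 1), in the same 4 libraries. Hk1 ranges from 24.6% to 81.9% of the hexokinases, G6pc2 holds over 90% of the catalytic subunits throughout, and the ratio runs from 0.998 to 43.2.

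STZ was compared with control within each gate. In the Glut2H-labelled libraries, 6 of the 9 genes were measured. Hk1 was at least 2-fold higher after STZ, as were 9.62% of all 15558 genes measured, and 0 of the 6 were at least 2-fold lower, against 13.8%. In the Glut2L-labelled libraries, 6 were measured, 0 were at least 2-fold higher (10.2% of 15602 genes) and Hk1 and Hk3 were at least 2-fold lower (11.1%). The phosphatase genes differed by less than 2-fold in both gates. None of the 9 was also apart in its intervals, against 0.379% higher and 0.656% lower of all genes in the Glut2H pair and 0.32% and 0.41% in the Glut2L pair.

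For Hk1 the STZ difference was 2.74 on the log2 scale in the Glut2H-labelled libraries (13.8 and 97.7 FPKM) and -2.63 in those labelled Glut2L (27.6 and 3.62 FPKM). The intervals of control and STZ overlapped in both gates. For Hk3 the differences were 0.49 and -1.51, and the second was -0.67, short of 2-fold, with a pseudocount of 5. G6pc2 was at 98.1 and 136 FPKM in the Glut2H-labelled libraries and at 420.0 and 247 in those labelled Glut2L, differences of 0.46 and -0.76. The values of G6pc2 in the STZ libraries therefore lay closer together than those in the control libraries. G6pc3 was higher after STZ in both gates, by 0.61 and 0.51. Slc37a4 differed by 0.25 and -0.02, and the latter turned to 0.06 at the same total FPKM per library. Hk2 differed by -0.05 in the Glut2H-labelled libraries, which turned to 0.02 with the all-gene median centred on 0, and was below 1 FPKM in both Glut2L-labelled libraries. The difference between the gates in these STZ effects was not tested. Each STZ comparison shares its libraries with the gate comparisons.

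Leukocyte, endothelial and stromal markers moved between the gates with Hk2 and Hk3. The leukocyte list had medians of -4.55 in control mice and -4.16 after STZ for Glut2L against Glut2H, with 17 of 17 and 16 of 17 measured genes at least 2-fold lower. Endothelial medians were -2.92 and -3.78, with 7 of 8 and 7 of 7 lower. Stromal medians were -3.19 and -3.82, with 10 of 10 lower in both. Of 6 neutrophil markers, S100a8, S100a9 and Ly6g were listed at 0 in every library. Of those measured, 2 of 3 in control mice and 1 of 2 after STZ were at least 2-fold lower in Glut2L. Per 1000 FPKM of summed leukocyte markers, Hk2 stood at 4.20, 1.03, 3.71 and 3.49, and Hk3 at 7.58, 37.1, 9.85 and 5.52. In these ratios Hk3 was high relative to leukocyte markers in the Glut2L control library, while Hk2 was low there. Both rest on low values in that library whose deposited intervals reach 0. Hk3 was at 4.30 FPKM there (interval 0 to 10.7) and Hk2 at 0.119 (0 to 1.04). Acinar markers were lower too beside the low Hk1 and Hk3 of the Glut2L STZ library: in STZ mice 10 of 10 stood at least 2-fold lower in Glut2L than in Glut2H (median -3.77), and 9 of 9 for STZ against control in Glut2L (median -3.23), while in control mice 0 of 9 were 2-fold apart between the gates (median -0.43). In Glut2H, where Hk1 stood at 13.8 and 97.7 FPKM, 1 of 10 acinar markers was at least 2-fold higher after STZ and 0 lower (median 0.04). For STZ against control in Glut2L, 3 of 6 endothelial markers (median -1.11) and 2 of 8 stromal markers (median -0.48) were also at least 2-fold lower. Of 16 leukocyte markers there, 1 was higher and 1 lower (median 0.41). The part of these markers in the differences of Hk1, Hk2 and Hk3 was not tested. In bulk RNA, fewer cells of a type and less RNA per cell cannot be told apart.

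Beta cell markers moved with the phosphatase genes. Their median gate difference was 1.82 in control mice and 1.47 after STZ, with 11 of 12 at least 2-fold higher in the Glut2L-labelled library in each. G6pc2 per 1000 FPKM of the summed markers, most of which is Ins2, was 1.38, 1.24, 2.02 and 1.18, and the same ratio for Slc37a4 was 0.0714, 0.0475, 0.0926 and 0.0756. For G6pc3 it was 0.128, 0.0545, 0.213 and 0.127. Each of these 3 ratios was highest in the Glut2H STZ library, and the part of the markers in the gate differences was not tested. Of the duct markers, 5 of 8 were at least 2-fold higher in Glut2L in control mice and 7 of 9 after STZ, beside the low values of Hkdc1, and 1 was lower in each.

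**Figure D4:**
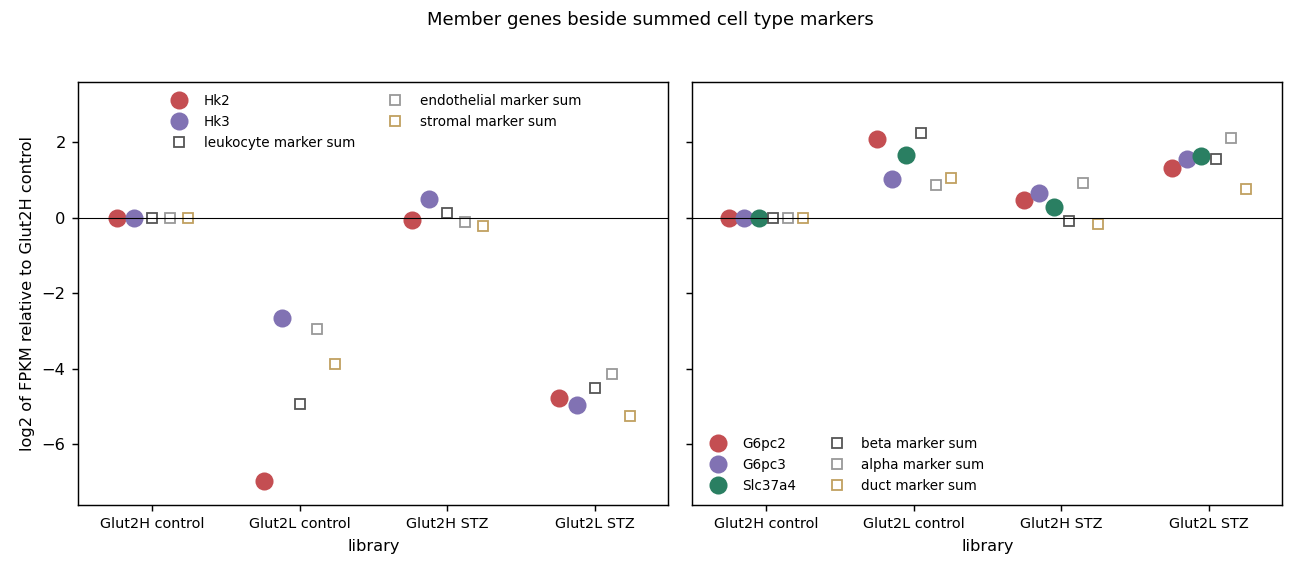
FPKM relative to the Glut2H control library on a log2 scale (vertical axis) in the 4 libraries, for Hk2 and Hk3 with summed leukocyte, endothelial and stromal markers (left) and for G6pc2, G6pc3 and Slc37a4 with summed beta, alpha and duct markers (right). Filled circles are single genes and open squares are marker sums. Hk2 and Hk3 lie below 0 together with the marker sums in both Glut2L-labelled libraries, and G6pc2, G6pc3 and Slc37a4 lie above 0 there.

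Genes that supply or use glucose 6-phosphate were read from lists of fixed pathways. Among 4 glucose transporters, 3 were measured in each gate comparison. Slc2a3 was at 9.87, 1.42, 8.79 and 0.301 FPKM, and Slc2a1 was at 27.7, 12.7, 26.2 and 16.5. Both are high-affinity transporters of many cell types. Among 10 other sugar kinases, 9 were measured in each gate comparison, with 1 higher and 2 lower at least 2-fold in control mice and 2 higher and 1 lower after STZ. With equal totals, 5 of 9 were higher and 2 lower in control mice, and after STZ 8 of 10 and 1. For this list and those below, the shares of all genes at equal totals were 44.3% higher and 12.1% lower in control mice. After STZ they were 58.4% and 9.79%. Galk1, which phosphorylates galactose, was at 8.63, 0.369, 11.8 and 0.528, and Gne, of sialic acid synthesis, at 7.27, 29.7, 14.6 and 32.5. Adpgk, an ADP-dependent glucokinase of another family, was at 6.86, 6.53, 6.73 and 10.2, nearly level in 3 libraries. Khk, the fructose kinase, was at 5.56, 9.16, 9.85 and 19.7, over 2-fold higher in STZ than control mice in Glut2L. Rbks, the ribose kinase, was at 5.28, 0.765, 1.56 and 3.38, at least 2-fold lower after STZ in Glut2H and higher in Glut2L.

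In glycolysis below glucose 6-phosphate the count of genes apart between the gates rested on the scaling. Of 18 genes measured in control mice, 2 passed 2-fold upward and 1 downward in Glut2L against Glut2H (median 0.28). After STZ, 3 of 19 were higher and 2 lower (median 0.07, which turned to -0.17 with the all-gene median centred on 0). At the same total FPKM per library, 11 of 19 were higher and 1 lower in control mice (median 1.10), and 12 of 19 and 2 after STZ (median 1.18), close to the all-gene medians of 0.87 and 1.18. Pfkm, a phosphofructokinase, was at 2.54, 10.2, 1.97 and 6.32 FPKM. Ldha, which makes lactate and is another gene kept low in beta cells, was at 83.6, 16.5, 80.6 and 10.2. Pklr, the pyruvate kinase of liver and islets, was at 1.09, 13.9, 42.1 and 44.2, at least 2-fold higher after STZ in both gates. Eno3 (6.36, 5.69, 0.508 and 7.70) and Ldhb (5.90, 6.33, 0.992 and 4.98) were at least 2-fold lower after STZ in the Glut2H-labelled libraries.

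Gluconeogenic genes stood with the phosphatase system. In the Glut2L-labelled library, 2 of 4 measured were at least 2-fold higher in control mice, with a median of 1.06, and 3 of 4 after STZ, with a median of 1.88. None of the 4 was lower in either, and at the same total FPKM per library all 4 were higher in both. Fbp1, which encodes fructose-1,6-bisphosphatase, was at 36.3, 123, 23.7 and 81.8 FPKM, and Fbp2 at 15.2, 35.5, 4.52 and 31.4. Pcx, the pyruvate carboxylase gene, was at 4.76, 8.63, 1.86 and 10.5. Fbp2 and Pcx were at least 2-fold lower after STZ in Glut2H. Pck1 stayed below 0.3 FPKM, while Pck2 of the same list was at 14.1, 28.1, 17.9 and 34.6. Of 5 regulators of phosphofructokinase, 2 were at least 2-fold higher and 1 lower in control mice, and 1 and 1 after STZ. At the same total FPKM per library, 2 were higher and 0 lower in control mice. Pfkfb2, the isoform of heart and islets, was at 7.69, 24.1, 7.68 and 20.8. Pfkfb3, the inducible isoform, was at 17.4, 5.02, 7.63 and 5.61, and its gate difference after STZ was -0.38, short of 2-fold.

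Pentose phosphate genes had medians below 0. None of the 8 measured was at least 2-fold higher in the Glut2L-labelled library in either treatment, while 1 was lower in control mice and 3 after STZ. The medians of -0.69 and -0.93 turned to 0.11 and 0.18 at the same total FPKM per library, where 2 and 3 of the 8 were at least 2-fold higher and 0 lower. G6pdx, the first enzyme of the pathway, was at 34.2, 19.9, 40.9 and 15.4 FPKM. H6pd, which uses glucose 6-phosphate inside the reticulum, was at 23.2, 12.3, 24.4 and 7.43. Pgd was at 177, 80.6, 184 and 67.9. H6pd and Slc37a4 act in the same compartment.

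Of 11 glycogen genes, 10 were measured, with 2 higher and 1 lower in control mice (median 0.28) and 1 and 1 after STZ (median 0.30). With equal totals, 6 were higher and 0 lower in control mice (median 1.02), and 7 and 0 after STZ (median 1.31). Pygm was at 1.42, 7.20, 1.10 and 7.90 FPKM, and Ugp2, which makes UDP-glucose, at 6.70, 26.0, 35.7 and 22.5. Pygl, the liver glycogen phosphorylase, was at 2.76, 0.746, 6.55 and 5.70, at least 2-fold higher after STZ in both gates. Of 7 hexosamine genes, 1 was higher and 1 lower in control mice and 2 and 1 after STZ, which became 3 and 1, and 6 and 1, at the same total FPKM per library. Gfpt1, the entry enzyme, was at 33.5, 115, 33.6 and 89.9, and its paralog Gfpt2 at 9.92, 1.10, 4.76 and 0.0816. The mitochondrial channel genes Vdac1, Vdac2 and Vdac3, whose proteins bind Hk1 and Hk2, did not differ by 2-fold in any comparison as deposited. At the same total FPKM per library 2 of the 3 were higher in both gate comparisons, and with the all-gene median centred on 0, 1 was lower after STZ. Of 5 general genes of the reticulum, 5 were at least 2-fold higher in the Glut2L-labelled library in control mice, with a median of 1.41, and 2 after STZ, with a median of 0.94; the chaperone gene Hspa5 was at 519, 1987, 609 and 1385.

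**Figure D5:**
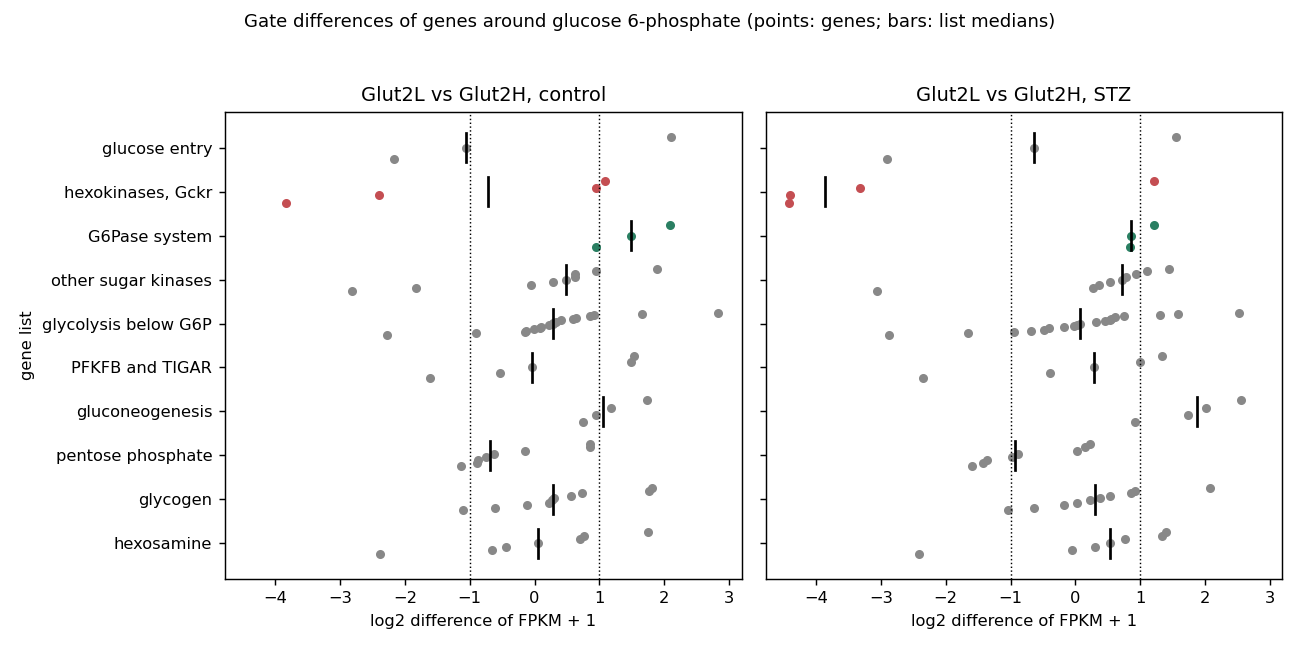
Log2 difference of FPKM plus 1 between the Glut2L-labelled library and that labelled Glut2H (horizontal axis) in control mice (left) and after STZ (right) for genes of 10 lists around glucose 6-phosphate. Each point is a gene measured in that pair, black bars are list medians and dotted lines mark 2-fold. Medians of the phosphatase system (1.49 and 0.86) and of gluconeogenesis (1.06 and 1.88) lie above 0, and those of the hexokinases (-0.72 and -3.86) and the pentose phosphate list (-0.69 and -0.93) below. In control mice the hexokinases lie on both sides of 0, with Hk1 at 0.95, Hkdc1 at 1.09, Hk3 at -2.40 and Hk2 at -3.83. Their control median became -0.08 at the same total FPKM per library.

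Finally, the genes with the most similar profile were listed for the 6 genes that reached 5 FPKM, by the root mean square difference of centred log2 values over the 4 libraries, among 10126 protein-coding genes. With 4 libraries many genes lie close by, and likeness is a description alone. Among the nearest to Hk2 were Emr1 (0.05) and Itgax (0.06), both expressed in myeloid cells. Nearest to Hk3 were Egfl7 (0.12), Glipr1 (0.14) and Litaf (0.14). Those of G6pc2 were Fkbp11 (0.01), Ucn3 (0.06) and Maob (0.07), where Ucn3 encodes a peptide of mature beta cells. Slc37a4 was followed by Gjd2, Tsc22d1 and Kcnj6 (each between 0.02 and 0.03) and G6pc3 by Reep2, Nipal2 and Pgrmc1 (0.02 to 0.03). Hk1 had no such close gene: Engase was nearest at 0.32, whereas 42 genes lay within 0.25 of Hk2 and 708 within 0.25 of Slc37a4.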

How the data were processed

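Per the labels' protocols, ribosomal RNA was removed and TruSeq stranded libraries were made from column-purified RNA; per the submitters' processing notes, TopHat2, SAMtools and Cuffdiff were used on GRCm38 (mm10). Not given in the sources used here were versions, the authors' annotation and whether counting used strand. Each deposited gene has an FPKM, interval bounds and a status, per the file headers; the other deposited columns, interval bounds, were used in an alternative and in description. The tables of single samples held the same FPKM (0 of 156680 values differed).

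Rows were matched by Ensembl ID to GENCODE release M21 on GRCm38 (37607 of 39170) for positions and gene types, and promoters of all 9 genes were found in the RefSeq table. Each of the 4 comparisons took log2 of FPKM plus 1 over genes with at least 1 FPKM in either library and an OK status, and called at least 2-fold differences. No test was possible at 1 library per group. Only the calling of 2-fold differences was tried on simulated data, with little noise and large changes put into well expressed genes. It cannot tell how calls behave for genes near 1 FPKM. The named genes are the 9 members in full; for each pathway list, up to 3 with the highest and 3 with the lowest mean gate difference and those at least 2-fold apart after STZ, at 5 FPKM or more; and the 3 nearest profiles, of which 1 is not reported here. Pck1, Vdac genes and S100a8, S100a9, Ly6g and Cd3e were named after their values were seen. The members, the 12 pathway lists and the 10 marker lists were chosen with earlier results of these data known. Alternatives were pseudocounts of 0.1 and 5, no filter or 5 FPKM, 3 scalings, non-overlapping intervals, the single-sample tables and protein-coding genes alone. Python 3.11.15 with pandas 2.3.3 and NumPy 2.4.6 was used.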

Additional observations from a re-analysis of the deposited data

Results flagged for a closer look

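STZ and control differed in opposite directions in the gates for 4 genes measured in both. The log2 differences in the libraries labelled Glut2H and Glut2L were 2.74 and -2.63 for Hk1, 0.49 and -1.51 for Hk3, 0.46 and -0.76 for G6pc2, and 0.25 and -0.02 for Slc37a4. Each rests on 1 library per group, and the difference between the gates was not tested. For Slc37a4 the opposite signs were lost at the same total FPKM per library (0.06 in the libraries labelled Glut2L). For Hk1 the 4 deposited intervals overlap.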

How the results depend on the processing

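The number of the 9 genes at least 2-fold apart was 5 between the gates in control mice, 5 after STZ, 1 for STZ against control in the libraries labelled Glut2H and 2 in those labelled Glut2L, where 38.2%, 40.7%, 23.5% and 21.2% of all genes were. At the same total FPKM per library both gate counts were 7. Of all genes, 44.3% were then higher and 12.1% lower in control mice, and 58.4% and 9.79% after STZ. At the reduced total, without the highest rows, both gate counts were 5. After STZ the gate count was 3 with a pseudocount of 5 and 3 with the all-gene median centred on 0. For STZ in the libraries labelled Glut2L it was 1 with a pseudocount of 5 and 1 with a filter of 5 FPKM, which left 4 genes. With the added condition that deposited intervals do not overlap, the 4 counts were 1, 2, 0 and 0, against 0.511% higher and 4.19% lower of all genes between the gates in control mice. The single-sample tables, the filters and protein-coding genes alone cannot change the difference of a gene that stays measured. With these settings counted in, 232 values of single genes kept their call and 5 passed 2-fold. Of 17 that lost it, 7 dropped below 2-fold (4 with a pseudocount of 5, 3 with the median centred) and 10 failed only the interval condition, their fold unchanged. The other 2, Hk2 (0.02) and Slc37a4 (0.06) for STZ against control, were under 2-fold and changed sign; no 2-fold difference reversed. The ratio of Hk3 to Hk2 in the Glut2L control library, 36.2, was 4.74 with a pseudocount of 1 and 20.1 with 0.1. No paired analysis was possible because each group holds 1 library. No library could be left out for the same reason. Read depth is unknown, so differences among genes near or under 1 FPKM (Hkdc1, Gckr, G6pc, and Hk2 in the libraries labelled Glut2L) carry a counting error that cannot be given.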
